A study of Mus musculus with 6 samples.

Results

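The immunoglobulin constant region genes of the mouse distal colon, with the joining chain gene Jchain and the transport receptor gene Pigr, were followed across water, DSS and DSS plus montmorillonite. The members were the rows whose Ensembl identifier maps in GENCODE mouse to Igha, Ighm, Ighg1, Ighg2b, Ighg2c, Ighg3, Igkc, Iglc1, Jchain or Pigr, which gave 10 genes of 20533. All libraries came from wild type C57BL/6 males aged 7 weeks, taken on day 7, and RNA was extracted with Trizol. One group drank water, another was given 2% DSS (dextran sulphate sodium, an agent that injures the colonic epithelium), and the last was given 2% DSS plus montmorillonite powder, a clay mineral, at an amount that is not given in the sources used here. Each group held 2 libraries, 6 in all, and the labels did not say that the libraries of a group were separate mice, so that p-values measure only the spread between these libraries, which may be technical.

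Antibodies are made by plasma cells, which derive from B cells and secrete 2 heavy and 2 light chains joined together. The constant gene of the heavy chain sets the isotype. In the gut most plasma cells make IgA, which is secreted as a dimer held by the joining chain. The polymeric immunoglobulin receptor, encoded by Pigr, takes dimeric IgA and pentameric IgM up at the base of epithelial cells and carries them to the lumen, where the outer part of the receptor is released with them. Plasma cells sit in the lamina propria and the receptor in the epithelium, so the members are transcribed in different cells. In bulk tissue, fewer cells of a type and less RNA per cell cannot be told apart.

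The heavy chain genes lie in 1 cluster on chromosome 12 (GRCm38, GENCODE M21 annotation, minus strand), in coding sequence that is alike between the IgG subclasses. The first 60 bases of the first constant exon of each are printed because they show how near the subclasses are and where reads can tell them apart. Ighg2c (exon bases chr12:113288873-113288932) is the reference of the comparison, and capitals in the other subclasses mark bases that differ from it. Ighg2b (chr12:113307874-113307933) differed at 5 of the 60 bases, Ighg1 (chr12:113330464-113330523) at 14 and Ighg3 (chr12:113361173-113361232) at 14. Igha (chr12:113260177-113260236) and Ighm (chr12:113422671-113422730) were not aligned to them and carry no capitals. All are written 5′ to 3′ on the coding strand.
Ighg2c: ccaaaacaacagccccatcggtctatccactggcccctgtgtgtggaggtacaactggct
Ighg2b: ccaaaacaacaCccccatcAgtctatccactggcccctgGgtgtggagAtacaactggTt
Ighg1: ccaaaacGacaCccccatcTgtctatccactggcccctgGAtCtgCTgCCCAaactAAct
Ighg3: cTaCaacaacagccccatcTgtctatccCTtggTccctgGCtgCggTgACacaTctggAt
Igha: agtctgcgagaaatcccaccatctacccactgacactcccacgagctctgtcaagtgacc
Ighm: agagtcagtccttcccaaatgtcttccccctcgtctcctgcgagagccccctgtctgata

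Over whole transcripts, Igha, Ighm, Igkc and Iglc1 had no stretch of 50 bases in common with another immunoglobulin constant gene of the table. Of the 50-base stretches of Ighg2c, 5.49% were also in another constant gene, as were 4.15% of those of Ighg2b, 1.58% of Ighg3 and 0.393% of Ighg1. Since read length and counter are not given in the sources used here, how shared reads were assigned between the IgG subclasses is uncertain.

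The deposited values were normalised read counts, the reads of a gene divided by 1 factor per library. The libraries held 3741494 to 21481594 reads, and a gene with 1 read had a value of 0.335 in the library with the most reads and of 2.27 in the one with the fewest. Of all reads, the 8 constant region members took 0.598% and 0.562% in water, 3.56% and 3.52% in DSS and, with montmorillonite added, 0.729% and 3.38%, with exact 95% binomial intervals no wider than 0.0167 points to either side, for counting error only. The DSS plus montmorillonite library of replicate 1 was therefore near water in this share, and that of replicate 2 near DSS. The same split within this group returned in most members, and both values are given each time.

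Igha, the heavy chain of IgA, lies at chr12:113254830-113260236. Its normalised counts were 23687 and 25790 in water and 122715 and 120011 in DSS. They were 32178 and 155034 in DSS plus montmorillonite. Both DSS libraries were above both water libraries, and the second DSS plus montmorillonite library was the highest of the 6. On the log2(value + 1) scale Igha was 2.30 ± 0.23 (SE) higher in DSS than in water, a fold of 4.91 (limma, adjusted p = 0.00638, 2 against 2 libraries).

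Ighm, the heavy chain of IgM, which naive B cells also carry on their surface, lies at chr12:113418558-113422730. It measured 222 and 357 in water, 2367 and 1247 in DSS, while DSS plus montmorillonite gave 318 and 1036. It rose 6.09-fold in DSS, 2.61 ± 0.37 on the log2 scale (limma, adjusted p = 0.0119). The 2 DSS libraries were far apart, replicate 1 being the higher, but neither overlapped with water.

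The IgG subclasses had larger fitted differences than IgA, 3.35 to 6.09 on the log2 scale, though the difference between isotypes was not tested. Ighg2c (chr12:113285325-113288932), the subclass that C57BL/6 mice carry where some other strains carry Ighg2a, measured 1852 and 1242 in water, 16208 and 35315 in DSS and, with montmorillonite added, 3029 and 15140. It rose 15.8-fold, 3.98 ± 0.40 on the log2 scale (limma, adjusted p = 0.00639). Here replicate 2 was the higher DSS library, the opposite of Ighm. Ighg2b (chr12:113302965-113307933) measured 1071 and 771 in water, 9449 and 9101 in DSS, while DSS plus montmorillonite gave 1397 and 6374. Its DSS libraries were close together, and the rise of 10.2-fold (3.35 ± 0.20, limma, adjusted p = 0.00212) had the smallest p of the members.

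Ighg1 (chr12:113325240-113330523) measured 251 and 387 in water, 2304 and 4793 in DSS and, with montmorillonite added, 223 and 2558, so that one treated library was below both water libraries and the other within the DSS range. It rose 10.6-fold in DSS (3.41 ± 0.39, limma, adjusted p = 0.00787). Ighg3 (chr12:113356224-113361232), the lowest of the members, measured 18.2 and 4.55 in water, 706 and 699 in DSS, while DSS plus montmorillonite gave 34.5 and 136. Those water values were 19 and 2 reads, and the fitted rise of 68.1-fold (6.09 ± 0.59, limma, adjusted p = 0.00597) rests on them. On the log2 scale it was 6.99 without water replicate 1 and 5.19 without water replicate 2.

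**Figure D1:**
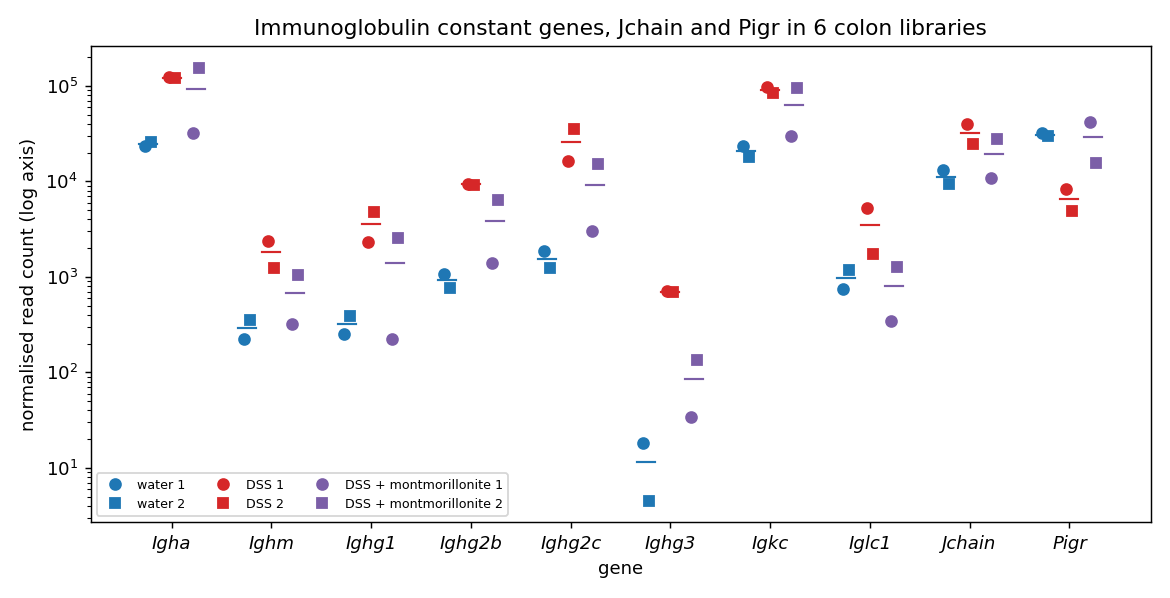
Normalised count of each of the 10 members (log scale) in the 6 libraries, 1 point per library, grouped as water, DSS and DSS plus montmorillonite. The 2 DSS libraries lie above both water libraries for 9 members and below them for Pigr, and the 2 DSS plus montmorillonite libraries lie far apart (for Igha, 32178 and 155034).

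The light chains were led by kappa. Igkc (chr6:70726435-70726966, plus strand), the kappa constant gene, measured 23417 and 18066 in water, 97030 and 83633 in DSS and, with montmorillonite added, 29546 and 94877. It rose 4.38-fold in DSS (2.13 ± 0.25, limma, adjusted p = 0.00825). Both DSS plus montmorillonite libraries were above both water libraries, and the second lay between the DSS libraries.

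Iglc1 (chr16:19061618-19062071, minus strand), a lambda constant gene, measured 747 and 1185 in water, 5205 and 1750 in DSS, while DSS plus montmorillonite gave 347 and 1259. The DSS libraries were above water but 1 was much nearer to it. Its fitted difference, 1.68 ± 0.52 on the log2 scale, did not pass (limma, adjusted p = 0.0812), while DESeq2 on the recovered reads called it (adjusted p = 0.000849). The start of its exon (chr16:19062012-19062071) is printed beside that of Iglc3 (chr16:19065622-19065681), a lambda gene that is no member, to show how far these starts differ. Over whole transcripts Iglc1 had no stretch of 50 bases in common with Iglc3. Capitals in Iglc1 mark the 12 of 60 bases that differ from Iglc3.
Iglc3: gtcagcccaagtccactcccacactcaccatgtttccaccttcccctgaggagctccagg
Iglc1: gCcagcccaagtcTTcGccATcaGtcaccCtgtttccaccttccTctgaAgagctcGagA

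Jchain (chr5:88519809-88527891, minus strand) encodes the polypeptide that links IgA into dimers and IgM into pentamers. It measured 13043 and 9411 in water, 40278 and 24417 in DSS and, with montmorillonite added, 10951 and 27673. It rose 2.83-fold in DSS (1.50 ± 0.31, limma, adjusted p = 0.0291), the smallest rise among the members that passed. The first DSS plus montmorillonite library was within the water range and the second within the DSS range.

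Pigr (chr1:130826684-130852249, plus strand) went the other way. It measured 31689 and 29938 in water, 8291 and 4846 in DSS, while DSS plus montmorillonite gave 42010 and 15529. Pigr fell by 2.28 ± 0.29 on the log2 scale in DSS, to 0.206 of its level in water (limma, adjusted p = 0.00919). The first DSS plus montmorillonite library was the highest of the 6 and the second lay between water and DSS.

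In all, 8 of the 10 members passed as higher in DSS than in water, where 7.95% of the 20287 genes tested passed in that direction. Pigr passed as lower, where 7.28% of genes did, and Iglc1 did not pass. No member had overlapping groups: 9 members had both DSS libraries above both water libraries, as had 34.0% of all genes, and 1 had both below, as had 28.5%. The median log2 difference was 2.45 over the members and 0.10 over all genes tested. This fit used the 4 libraries compared, and it was chosen with the result of the 6-library fit known. In the fit of all 6 libraries limma called 0 members and 0 genes in this comparison, the members' adjusted p were 0.141 to 0.227, and 9 members and 4662 genes were at an unadjusted p below 0.05. Members called numbered 0 without DSS replicate 1 and 0 without DSS replicate 2, 4 without water replicate 1 (the 4 IgG genes) and 5 without water replicate 2 (those and Ighm). All of these were higher in DSS, as were 1.59% of all genes without water replicate 1 and 1.59% without water replicate 2. With 1 library left in a group, that library is assumed to vary like the other group.

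In DSS plus montmorillonite against water, limma called 0 of the 10 members, as it called 0% of the 19785 genes in either direction. At an unadjusted p below 0.05 there were 2 members, Ighg2c and Ighg3, and 1499 genes. On the recovered reads edgeR called 0 members and DESeq2 called 1 as higher, Ighg2c (adjusted p = 0.0194), with 0.440% of all genes. The fitted log2 differences were 1.51 ± 0.76 for Igha, 2.16 ± 0.75 for Ighg2c, 2.76 ± 0.96 for Ighg3 and 0.65 ± 0.49 for Jchain. That of Pigr was -0.27 ± 0.52. Both libraries were above both water libraries for 5 members (Igha, Ighg2b, Ighg2c, Ighg3 and Igkc), as for 21.9% of all genes, and below both for 0 members, as for 19.6%. The limma adjusted p of the members were 0.642 to 0.878, and the spread between the 2 treated libraries set the errors: without replicate 2 of that group the fitted difference of Pigr was 0.45, that of Jchain -0.017 and that of Ighg1 -0.48, against 1.28 with it. Without replicate 1 that of Iglc1 was 0.42, against -0.51 with it.

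In DSS plus montmorillonite against DSS, limma again called 0 of the 10 members and 0% of the 20316 genes. At an unadjusted p below 0.05 there were 3 members, Ighg3, Pigr and Iglc1, and 1467 genes, while edgeR called 0 members and DESeq2 called 1 as lower, Ighg3 (adjusted p = 0.00567), with 0.108% of all genes. The fitted log2 differences were -3.33 ± 0.68 for Ighg3, -1.82 ± 0.87 for Ighg2c, -0.78 ± 0.84 for Igha and 2.01 ± 0.59 for Pigr, with limma adjusted p of 0.674 to 0.800 over the members. Both treated libraries were below both DSS libraries for 5 members (Ighm, Ighg2b, Ighg2c, Ighg3 and Iglc1), as for 20.7% of all genes. They were above them for Pigr alone among the members, as for 19.3% of genes. Without replicate 2 of the treated group limma called 5 members, with Ighg1, Ighg2b, Ighg2c and Ighg3 lower than in DSS, as 2.42% of genes then were, and Pigr higher, as 0.900% were. Without replicate 1 it called 0, and the fitted differences of Igha and Igkc were 0.35 and 0.075 above DSS. The 3 comparisons share libraries in pairs and are set side by side only.

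**Figure D2:**
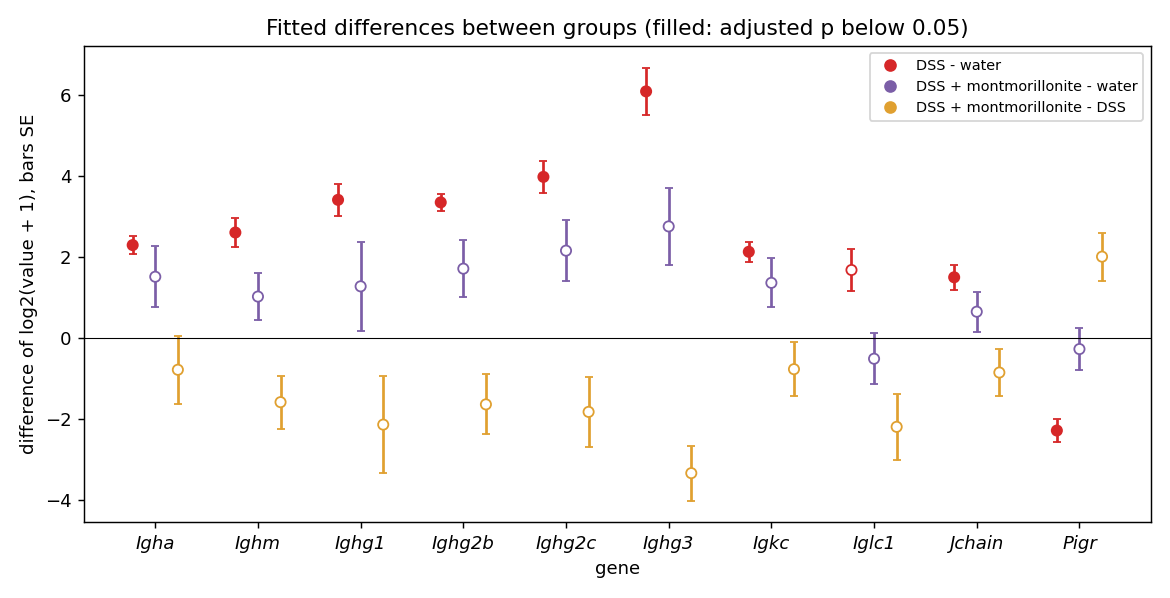
Fitted log2 difference of each member in the 3 comparisons, with points for the estimate and bars for 1 standard error (limma, 2 against 2 libraries each). In DSS against water the differences run from -2.28 for Pigr to 6.09 for Ighg3, and the bars are wider in both comparisons that hold the DSS plus montmorillonite libraries.

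Levels were compared between genes as normalised counts per kilobase of all annotated exons. In water the order was Igkc with 38988 ± 7112 (SD, n = 2), Igha with 9272 ± 557, Pigr with 7656 ± 308, Jchain with 4460 ± 1021, Iglc1, Ighg2c, Ighg2b, Ighm, Ighg1 and Ighg3. Only the libraries of Ighm and Ighg1 overlapped among neighbours. In DSS, Igkc (169796 ± 17807) and Igha (45488 ± 717) stayed first and second, Ighg2c (19428 ± 10189) had rank 3 and Pigr (1632 ± 605) rank 7. The neighbours Ighg2c and Jchain, Jchain and Iglc1, Pigr and Ighg1, and Ighg1 and Ighm overlapped there. In DSS plus montmorillonite all neighbours overlapped except Igha and Jchain, and Ighm and Ighg3. Overlap here compares ranges over the libraries of a group, not genes within a library. Within each library Ighm was above Ighg1 in water, and Jchain above Iglc1 in DSS. In each DSS plus montmorillonite library Igkc was above Igha, Ighg2c above Iglc1, Iglc1 above Ighg2b and Ighg2b above Ighg1. The other overlapping neighbours changed order between libraries of a group. The order depends on the lengths, mostly for Pigr, whose shortest transcript has 740 bases against 4025 in all exons. By shortest transcript Pigr had rank 1 in water and rank 5 in DSS, in place of 3 and 7. Whether the 740-base transcript was the one expressed was not tested, so these ranks show only how far the length moves the order. Pigr per Igha on the scale of all exons was 0.887 and 0.769 in water, 0.0448 and 0.0268 in DSS and, with montmorillonite added, 0.865 and 0.0664.

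The makeup of the heavy chain transcripts was computed from the same scale, each of 8 heavy chain constant genes (the 6 members, Ighd and Ighe) as a share of their sum. Igha made up 81.2% and 85.6% in water, 71.0% and 57.6% in DSS, while DSS plus montmorillonite gave 79.6% and 78.8%. The 4 IgG genes together made up 17.4% and 12.2% in water, 26.1% and 41.2% in DSS and, with montmorillonite added, 19.2% and 20.1%. IgA thus had the largest share in every library, and in DSS its share was below water and that of IgG above, without overlap between the 2 groups.

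Most of the IgG share was Ighg2c, with 12.8% and 8.29% in water, 18.9% and 34.1% in DSS, while DSS plus montmorillonite gave 15.1% and 15.5%. Ighm held between 0.745% and 1.94% in any library and did not separate the groups. The DSS plus montmorillonite libraries were close to each other in the shares of Igha and Ighg2c, unlike in their levels, but not in that of Ighg1 (0.568% and 1.34%). The mean share of Igha there was 79.2% ± 0.562 (SD, n = 2), against 83.4% ± 3.10 in water and 64.3% ± 9.43 in DSS. No test of the shares was made; with 2 libraries against 2, an exact two-sided permutation test cannot go below p = 0.333.

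The annotated exons of Ighg2c are shorter than those of the other IgG genes, 1326 bases against 2512 to 2678, while the shortest transcripts of the 4 run from 1076 to 1114 bases. With the shortest transcripts as lengths Igha took 88.8% in water, 74.7% in DSS and 86.3% with montmorillonite added. Ighg2c moved more: its mean share was 10.5% in water, 26.5% in DSS and 15.3% with montmorillonite added by all exons, and 5.53%, 15.4% and 8.20% by shortest transcript. The order of the 3 groups was the same for both genes under either length.

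**Figure D3:**
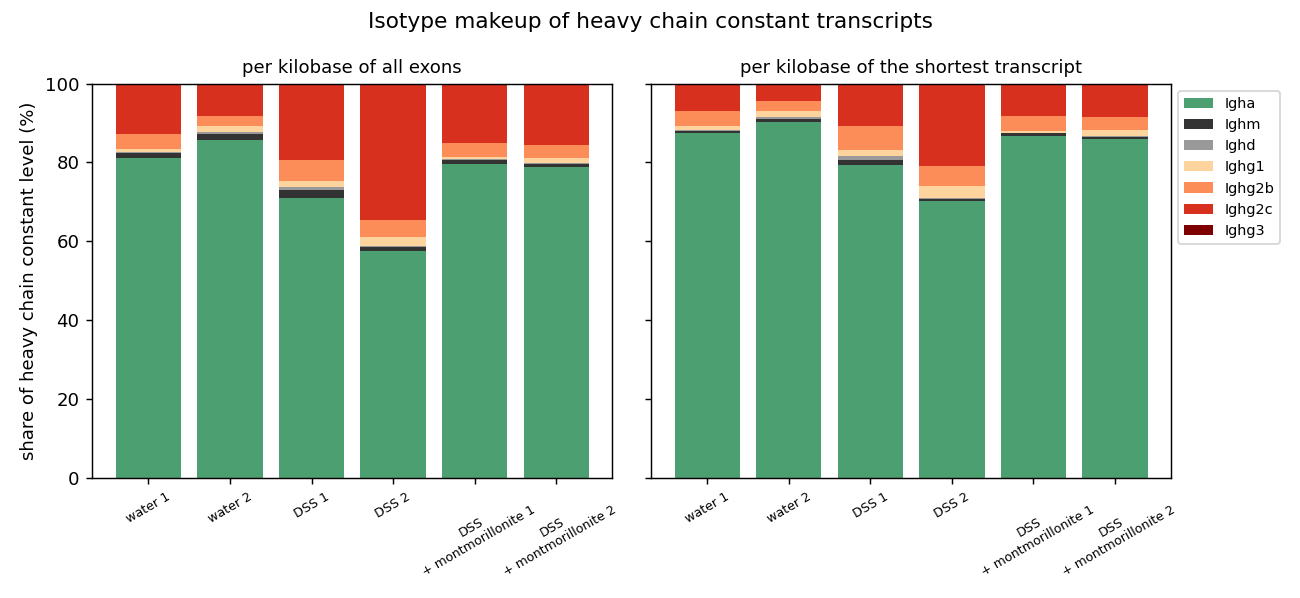
Share of each heavy chain constant gene in the summed reads per kilobase of the heavy chain genes, in percent. Each panel has 1 stacked bar per library, with lengths of all exons on the left and of the shortest transcript on the right. Ighe, at most 0.0388%, is not drawn. By all exons Igha takes 81.2% and 85.6% in water, 71.0% and 57.6% in DSS and, with montmorillonite added, 79.6% and 78.8%. By shortest transcript it takes 87.4% and 90.2% in water, 79.4% and 70.1% in DSS and, with montmorillonite added, 86.7% and 85.9%.

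Kappa made up 94.0% and 90.4% of light chain transcripts per kilobase in water, 91.4% and 96.0% in DSS, while DSS plus montmorillonite gave 95.9% and 97.2%. DSS overlapped with both other groups, and both DSS plus montmorillonite libraries were above both water libraries. Jchain per Igha was 0.584 and 0.387 in water, 0.348 and 0.216 in DSS and, with montmorillonite added, 0.361 and 0.189. Both DSS values and both DSS plus montmorillonite values were below both water values. In DSS that was the direction of the smaller rise of Jchain.

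The other constant genes of the table were Ighd, Ighe, Iglc2 and Iglc3. Ighd, the heavy chain of IgD on naive B cells, measured 52.8 and 111 in water, 1225 and 475 in DSS, while DSS plus montmorillonite gave 30.2 and 456. It rose 9.82-fold in DSS (limma, adjusted p = 0.0166). Iglc2 measured 568 and 439 in water, 2922 and 1476 in DSS and, with montmorillonite added, 873 and 1030. It rose 4.15-fold (limma, adjusted p = 0.0172). Iglc3 did not pass (limma, adjusted p = 0.124), and Iglc2 and Iglc3 shared 7.65% and 10.7% of their 50-base stretches with other constant genes. Ighe, the heavy chain of IgE, had 0 to 31 reads in any library and did not pass in any comparison.

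The genes that mark the cells making antibody were taken from lists. Counts of list genes that passed in DSS against water, here and below, stand beside 7.95% of all genes higher and 7.28% lower. Of 16 plasma cell genes, 6 rose in DSS, 0 fell and 10 did not pass, with a median log2 difference of 0.87 against 0.10 over all genes. Pou2af1, a coactivator of immunoglobulin transcription, measured 117 and 137 in water and 783 and 868 in DSS, a rise of 6.48-fold (limma, adjusted p = 0.00333). Derl3, a factor of endoplasmic reticulum quality control, rose 5.17-fold (limma, adjusted p = 0.0077). Mzb1, a chaperone of antibody assembly in the endoplasmic reticulum, measured 175 and 118 in water and 748 and 461 in DSS, 4.06-fold higher (limma, adjusted p = 0.0153). Sdc1, the surface marker CD138, which epithelial cells also express, did not pass (2.02-fold, limma, adjusted p = 0.0750).

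Of 15 B cell genes, 14 rose in DSS and 0 fell, with a median of 2.98. Cd79a, a signalling chain of the B cell receptor, measured 74.9 and 116 in water, 916 and 604 in DSS, while DSS plus montmorillonite gave 40.3 and 507. It rose 7.91-fold in DSS (limma, adjusted p = 0.00694), and Ms4a1, which encodes CD20, rose 7.80-fold (limma, adjusted p = 0.0233). Summed over the list, B cell values were 550 and 691 in water, 7260 and 3287 in DSS and, with montmorillonite added, 374 and 2484. DSS replicate 1 was the higher of its group in this sum, as in Ighd and in every member but Ighg1 and Ighg2c. Ighg1 and Ighg2c were higher in replicate 2. In Igha, Ighg2b and Ighg3 the DSS libraries were close together. The part of B cell number in the members' differences was not tested.

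Of 17 genes of IgA switching and plasma cell survival, 6 rose, 0 fell and 11 did not pass (median 1.42). Both DSS libraries were above both water libraries for 14 of them, as for 34.0% of all genes. They were below for 1, as for 28.5%: Tnfsf13, which encodes the survival factor APRIL, with 72.0 and 86.4 in water and 36.2 and 20.6 in DSS (named after its values were seen). Tnfrsf13b and Tnfrsf13c, the receptors TACI and BAFF-R for the survival factors BAFF and APRIL, rose 5.79-fold and 9.89-fold (limma, adjusted p = 0.0073 and 0.00798). Among 9 homing genes 4 rose and 1 fell (median 1.36). The homing genes that rose included Cxcr4, a chemokine receptor (5.74-fold, limma, adjusted p = 0.00696), and Madcam1, the gut vascular addressin (12.8-fold, limma, adjusted p = 0.00848). The 1 that fell was Ccl28, an epithelial chemokine that draws IgA plasma cells, which measured 2496 and 1608 in water, 706 and 221 in DSS, while DSS plus montmorillonite gave 2343 and 647 (0.198 of water in DSS, limma, adjusted p = 0.0388; named after its values were seen). Of 10 Fc receptor genes, 6 rose and 0 fell (median 1.31), with the smallest p for Fcer1g (3.44-fold, limma, adjusted p = 0.0065) and Fcgr2b (3.07-fold, limma, adjusted p = 0.0073).

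Pigr was set beside the epithelium that expresses it. Of 12 general epithelial genes, 10 fell in DSS and 0 rose, with a median of -1.47. Epcam, an adhesion molecule of epithelial cells, measured 17709 and 17013 in water, 8370 and 4673 in DSS and, with montmorillonite added, 17393 and 9099. It fell by 1.47 on the log2 scale in DSS (limma, adjusted p = 0.0273), and Krt8, a keratin of simple epithelia, fell by 1.81 (limma, adjusted p = 0.0155). Cldn3, a tight junction gene, and Krt20, a keratin of differentiated enterocytes, fell to 0.325 and 0.362 of water (limma, adjusted p = 0.00576 and 0.00754).

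Relative to the mean of water, Pigr was lower by more than the list's median in both DSS libraries. The log2 difference of Pigr was -1.89 and -2.67 there, and the median of the 12 genes -1.23 and -1.70. No gene of the 12 was further below water than Pigr in DSS replicate 1, and 1 was in replicate 2. In DSS plus montmorillonite Pigr was at 0.45 and -0.99 and the list at 0.12 and -0.65. Pigr minus the list's median was thus -0.67 and -0.97 in DSS, while DSS plus montmorillonite gave 0.33 and -0.34, and no test was made of it. Summed over the 12 genes, values were 170257 and 178490 in water, 71749 and 49867 in DSS and, with montmorillonite added, 184681 and 99571, and the part of epithelial loss in the fall of Pigr was not tested.

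**Figure D4:**
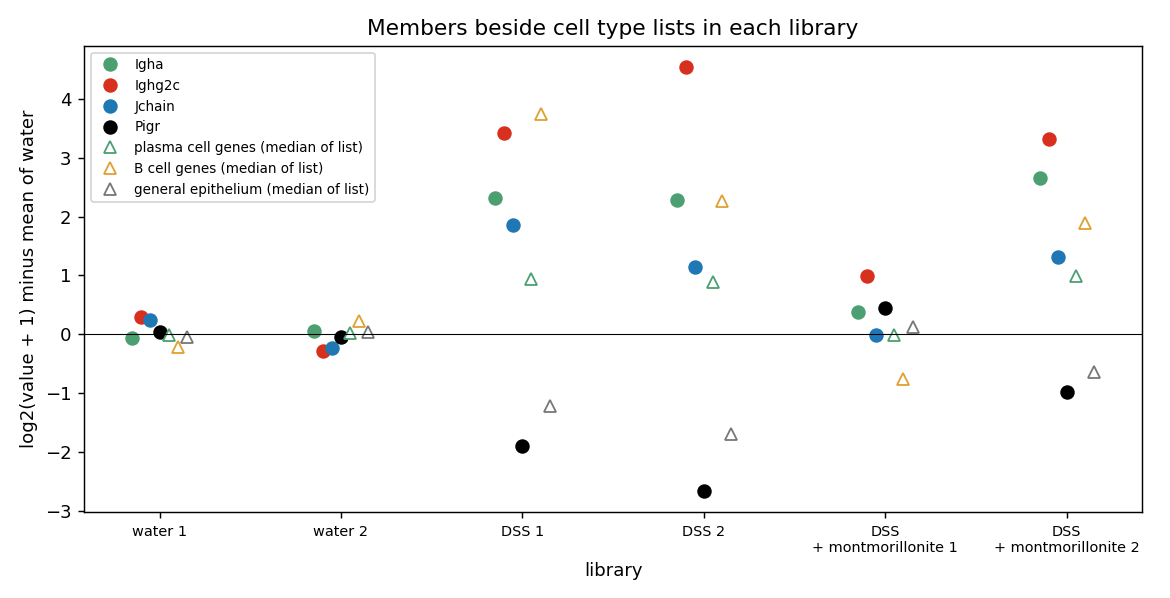
Difference from the mean of water, on the log2(value + 1) scale, in each library: filled points for Igha, Ighg2c, Jchain and Pigr, open triangles for the median of the plasma cell, B cell and general epithelial lists. Pigr lies below the epithelial median in both DSS libraries (-1.89 and -2.67 against -1.23 and -1.70), and the first DSS plus montmorillonite library has Pigr at 0.45 and Igha at 0.38, where the second has -0.99 and 2.65.

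Genes of epithelial transcytosis, the machinery that carries the receptor across the cell, fell in 4 of 10 cases and rose in 0. Their median was -0.76, beside -1.47 for the general epithelial genes. Those that fell were Rab25, Rab17, Myo5b and Ap1m2, the last pair named after their values were seen. Rab17 and Rab25, small GTPases of epithelial recycling endosomes, were at 0.181 and 0.391 of water in DSS (limma, adjusted p = 0.0199 and 0.0141). Of 21 genes that regulate Pigr, 5 rose, 4 fell and 12 did not pass, with a median of -0.05. Vdr, the vitamin D receptor, measured 3739 and 3857 in water, 648 and 439 in DSS, while DSS plus montmorillonite gave 5178 and 930. It fell to 0.141 of water in DSS, and Il17rc, a chain of the IL-17 receptor, to 0.247 (limma, adjusted p = 0.00412 and 0.00455). The part of epithelial loss in these falls, as in those of the transcytosis genes, was not tested. The others that passed, named after their values were seen, were Il4ra, Il17ra, Il17a, Il22 and Myd88, which rose, and Irf1 and Ticam1, which fell. Il17a and Il22 had no read in water, whose libraries held fewer reads than those of DSS.

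Irf1, an interferon-induced transcription factor, is one of the regulators through which interferon acts on Pigr. It measured 3023 and 3718 in water, 1341 and 1107 in DSS and, with montmorillonite added, 2730 and 1555. The promoter windows of RefSeq (GRCm38.p6, 250 bases before to 50 after each start, 32851 windows, both strands) were searched for TTTCNNTTT, the core of interferon response elements. Pigr had 1 match, which begins at base 8 of its transcript, Jchain had 0, and 10.6% of all windows held the motif. Other motifs searched in the same windows were the E-box and the core of NF-kB sites. Pigr had 1 E-box, at -71 from its start, and 3 NF-kB cores, and Jchain had 0 of each. Of all windows, 7.15% held an E-box and 50.8% an NF-kB core. The stretch of the first Pigr exon that holds the interferon core (chr1:130826685-130826705, plus strand) is printed with that match in capitals. The matches are a description of the letters and no evidence of binding.
Pigr exon 1: aaacagTTTCAGTTTtgacaa

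Lists of cells that make no antibody were counted in the same fit. Of 10 T cell genes 1 rose in DSS, Cd4 (2.40-fold, limma, adjusted p = 0.0307), and 0 fell (median 0.62). Of 9 neutrophil genes 6 rose and 1 fell (median 6.91). Of the 9, 3 to 5 had no read in a water library while 0 lacked one in a DSS library, but the DSS libraries were deeper. Of 8 smooth muscle genes 1 fell, Synm, an intermediate filament gene (0.405 of water, limma, adjusted p = 0.0202), and 0 rose (median -0.89). In both comparisons with DSS plus montmorillonite limma called 0 genes of any list. The list medians there were 0.51 against water and -0.61 against DSS for plasma cell genes, 0.62 and -2.40 for B cell genes, and -0.32 and 1.15 for general epithelium, beside 0.05 and -0.07 over all genes. Those of the neutrophil genes were 4.72 and -2.38, over the 8 tested.

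The genes most like Igha and Pigr over the 6 libraries were ranked by Pearson correlation of log2(value + 1) among the 11932 genes whose mean value reached 50. For Igha they were Xbp1, Lifr, Sod2, Pstpip1 and G0s2 (r of at least 0.997, rounded). Xbp1, the transcription factor of the secretory programme of plasma cells and of other secretory cells, measured 2165 and 2199 in water, 3838 and 3888 in DSS, while DSS plus montmorillonite gave 2383 and 4246. The libraries stood in the order of Igha but for the 2 DSS libraries, over a smaller range. For Pigr they were Neu1, Fam83e, 2200002D01Rik, Dstn and Myo7b (r of at least 0.998, rounded). Fam83e measured 3679 and 3805 in water, 1352 and 825 in DSS and, with montmorillonite added, 4861 and 2069. The points are the same 6 libraries for every gene, and the correlations are given as a description.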

How the data were processed

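Per the labels, reads from 6 colon libraries were mapped to mm10 (GRCm38). Aligner, counter and normaliser are not given in the sources used here. Deposited signal values are read counts per gene divided by 1 factor per library by the authors, which was read from the values: 100% were whole multiples of 1 step to within 0.01 read. Symbols and exons came from GENCODE M21 (20500 identifiers found without version, 33 not found).

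Groups came from the sample titles. A count test was the first choice; since the values were normalised, each comparison was fitted with limma 3.58.1 (R 4.3.3, intensity trend) on log2(value + 1) of its 4 libraries, over genes with a mean of at least 1, two-sided, Benjamini-Hochberg adjusted p below 0.05. Folds are on that scale and understate changes of low genes. edgeR 4.0.16 and DESeq2 1.42.0 on recovered reads, a 6-library fit, other pseudocounts (0.5, 5), filters and scalings, a replicate block and leaving out each library were alternatives. Shortest-transcript lengths were added after seeing the data. The fit was tested on simulated data. No set test was run.

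The members, the 12 other lists (141 of 143 genes in the table) and the tests were chosen with earlier results of these data known. Named genes were the members, the other constant genes, the 2 genes of smallest p in each list and comparison (given here for DSS against water), 6 defining genes, and the 5 most alike genes to Igha and to Pigr. Of the genes so chosen, some are not reported here. Genes outside this rule were named after their values were seen.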

Additional observations from a re-analysis of the deposited data

How the results depend on the processing

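In DSS against water every member kept its direction under every alternative run. Members called numbered 9, the same 9 genes with pseudocounts of 0.5 and 5, without a filter, with a mean of at least 10, with edgeR and with both library size scalings; 10 with DESeq2; 0 in the 6-library fit; and 0 to 5 when 1 library was left out. The replicate block called 10 (Iglc1, limma adjusted p = 0.00514), and 2754 genes higher and 2385 lower in place of 1612 and 1477. Deviations of libraries of the same number correlated at 0.196, 0.160 and 0.409 in the 3 comparisons over 13914 genes; since groups of 2 share only a number, the block is an alternative and no pairing was crossed. The block called 0 members in the other comparisons. DESeq2 called 2151 higher and 1899 lower in DSS, and library size scaling 2201 higher and 895 lower, with the median of all genes at 0.33 in place of 0.10; without either DSS library limma called 0 genes. Against water, DSS plus montmorillonite had 1 member called by DESeq2 and 0 to 0 with 1 library left out; against DSS, 1 by DESeq2 and 0 to 5. Signs turned only with a library of that group left out. Against water, leaving out its replicates 1 and 2 gave 0.42 and -1.44 for Iglc1, 3.03 and -0.48 for Ighg1, 1.32 and -0.017 for Jchain and -0.99 and 0.45 for Pigr; against DSS, 0.35 and -1.92 for Igha and 0.075 and -1.61 for Igkc. The share of Igha was 88.6%, 74.5% and 86.1% in water, DSS and DSS plus montmorillonite with reads not divided by length, and 88.8%, 74.7% and 86.3% by shortest transcript. Pigr against Epcam alone was 0.19 in DSS plus montmorillonite, where the epithelial list gave -0.01. The depth of the water libraries limits Ighg3 and Ighe.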
